A study of Mus musculus with 2 samples.

Results

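The genes described here are 7 output genes of the circadian clock: the REV-ERB nuclear receptors Nr1d1 and Nr1d2, the PAR bZIP transcription factors Dbp, Tef and Hlf, their counterpart Nfil3, and the nuclear receptor Rora. They were picked by symbol from 55573 genes listed for mouse mesenteric artery, with their fold changes in these same libraries already known, so every fold change below is a description and carries no test. All 7 had at least 10 reads over both libraries. The measurement was RNA-seq of mesenteric arteries, the arteries that supply the intestine, from wild type C57BL/6 mice that were 10 weeks old. Arteries in 5 mM K+ gave 1 library and arteries in 60 mM K+, which depolarizes the smooth muscle membrane, gave the second, with 60 min as the labelled time of each. Each library pooled tissue of 2 mice, and with 1 library per condition there is no replicate, no SD and no p-value. The study compared the libraries to find genes whose mRNA changes when smooth muscle is depolarized.

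According to the study's methods, both solutions contained tetrodotoxin, a blocker of nerve sodium channels, and the control tissue was the distal side of the ligated arteries, taken before the rest was perfused with the high K+ solution. By these methods the control was taken after incubation without perfusion, while the study's results text describes perfusion with either solution for 60 min. K+ concentration, artery segment, perfusion and time in solution therefore cannot be told apart. None of the sources used here gives the time of day at which the arteries were taken, which sets the level of clock genes. Gene counts summed to 10480918 reads for 5 mM K+ and 11289598 for 60 mM K+. Among the 14829 genes with at least 10 reads, the median log2(fold-change) was -0.0047 after TMM scaling, edgeR's trimmed mean of M-values. It was -0.21 after scaling by total counts. Ppia and Hprt, the reference genes of the study's qPCR, were at 0.51 and 0.47. With these 2 genes as the reference, every log2(fold-change) dropped by 0.49 from its TMM value, so that genes between 0 and 0.49, among them Rora, turned negative. The smooth muscle markers Acta2, with 187183 reads in 5 mM K+ and 199779 in 60 mM K+, and Myh11, with 154041 and 148394 reads, were abundant in both libraries, as the tissue label implies.

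The circadian clock is a feedback loop of transcription. The activators CLOCK and BMAL1 (the product of Arntl) bind E-boxes in the genes of their own repressors, the Period and cryptochrome genes, and in output genes such as Nr1d1, Nr1d2 and Dbp. REV-ERB proteins bind the RORE element and repress, while ROR proteins such as RORA bind the same element and activate, and the genes under this control include Arntl and Nfil3. DBP, TEF and HLF activate through the D-box, which NFIL3 also binds as a repressor. In arteries the clock sets daily rhythms of vessel tone and blood pressure, and REV-ERB, whose ligand is heme, also represses inflammatory genes.

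Nr1d1 was 3.63-fold lower in 60 mM K+ than in 5 mM K+, Dbp was 2.14-fold lower and Nfil3 was 2.84-fold higher. Nr1d2 was 1.69-fold lower, while Tef, Hlf and Rora lay within 1.22-fold of their 5 mM K+ level. Of the 7 genes, 2 lay below a log2(fold-change) of -1, compared with 5.86% of all genes with at least 10 reads, and 1 lay above 1, compared with 5.54%. Over all genes these shares stand for 869 genes below -1 and 822 above 1 with TMM scaling, and total counts gave 1285 and 601. The counting interval, which is the 95% exact (Clopper-Pearson) interval of the log2(fold-change) and covers counting error only, lay wholly below 0 for 4 of the 7 genes and for 20.3% of all genes. It lay wholly above 0 for 2 of the 7 genes and for 25.0% of all genes, and spanned 0 for Hlf, all with TMM scaling. Since the genes were chosen on this contrast, nothing is read from these counts.

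**Figure D1:**
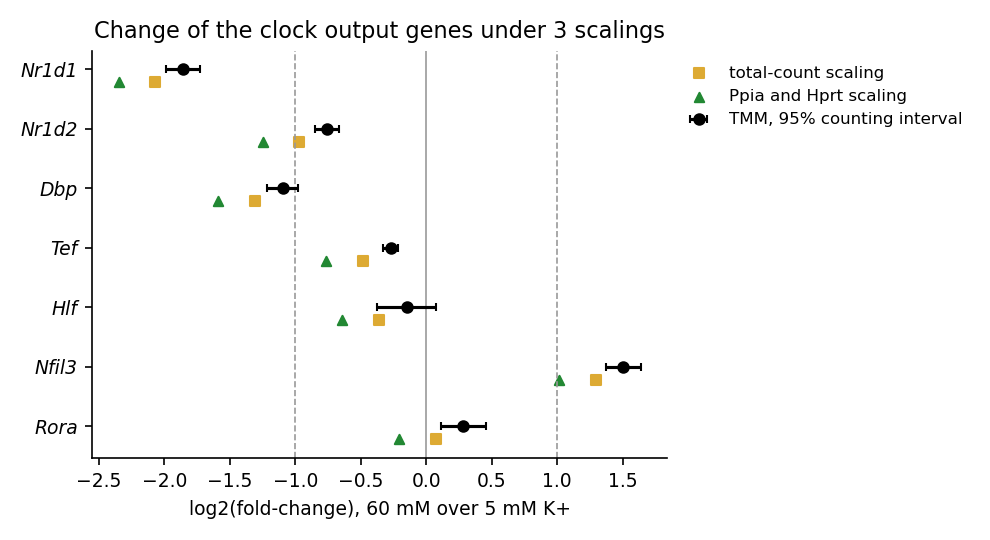
The log2(fold-change) of each of the 7 genes, 60 mM over 5 mM K+, on the horizontal axis, with symbols for TMM, total-count and Ppia with Hprt scaling and bars for the 95% counting interval. Nr1d1 is lowest at -1.86 with TMM scaling, Nfil3 is highest at 1.51, and Rora is at 0.28 with TMM, 0.07 with total counts and -0.21 with Ppia and Hprt.

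Sequence motifs around each start site are shown beside the genes. The search used the E-box CACGTG, the D-box TTATGTAA or TTATGCAA, the RORE core TAGGTCA, the cAMP response element (CRE) TGACGTCA and its core TGACG, on both strands, with the core also matching inside the full CRE. It was run on 1000 bases on each side of the start site of each protein-coding gene in GENCODE vM1, on mm9. Positions count from 0 at the first base of the gene, and negative positions lie upstream. Of 22380 protein-coding genes, 27.8% held an E-box in this window, 10.9% a D-box, 15.4% a RORE core, 3.90% a CRE and 61.8% the core TGACG. Of the 7 genes, 4 held an E-box, 4 a D-box, 2 a RORE core, 1 a CRE and 6 the core TGACG. A match shows only that these letters are present, and its absence says nothing about the factor. Sequences below read 5′ to 3′ on the strand of the gene, with the motif in capitals.

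**Figure D2:**
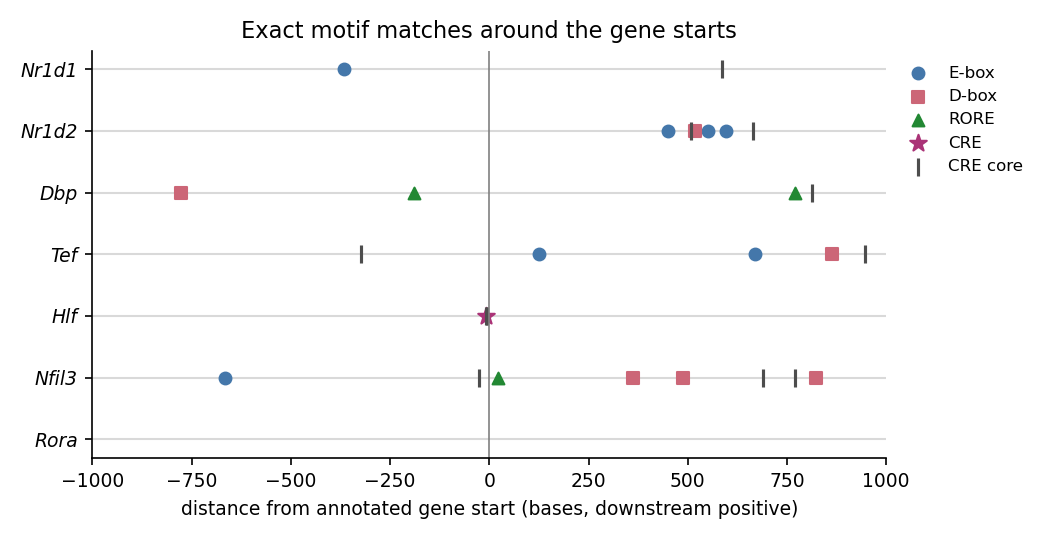
Motif matches around the start site of each of the 7 genes, with distance from the start site in bases on the horizontal axis and 1 row per gene. Nfil3 holds an E-box, a RORE core and 3 D-boxes, Nr1d2 holds 3 E-boxes and a D-box, and Rora holds none of the motifs.

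Nr1d1 (ENSMUSG00000020889, chr11:98629246-98636647, minus strand) encodes REV-ERBα, a heme-binding nuclear receptor that represses through RORE elements. It had 2361 reads in the 5 mM K+ library and 606 in the 60 mM K+ library, or 209.6 and 57.7 reads scaled to a library of 1000000 (CPM). The log2(fold-change) was -1.86 (counting interval -1.99 to -1.73), so the 60 mM K+ level was 27.5% of the 5 mM K+ level. Among the 6549 genes with at least 500 reads over both libraries, no gene had a lower log2(fold-change), and 8 of these genes, or 0.122%, were below -1. The next in that order were Rnf152 at -1.45 and Prmt2 at -1.22. With all 14829 genes of at least 10 reads, 263 genes were lower than Nr1d1.

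The 3′ end of Nr1d1 overlaps Thra, the thyroid hormone receptor gene on the opposite strand, by 263 exon bases, 8.42% of the exon bases of Nr1d1. The library kit does not mark strand, so reads in the shared bases cannot be assigned to either gene. Thra had 1140 and 841 reads, with a log2(fold-change) of -0.34 (-0.47 to -0.21). Of the nearest coding genes, Med24 had 458 reads in both libraries (0.10) and Msl1 had 903 and 734 (-0.20).

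Nr1d2 (ENSMUSG00000021775, chr14:19036568-19071641, minus strand) encodes REV-ERBβ, the paralog with the same kind of repressor activity. Its reads were 2621 and 1443, its CPM 233 and 137, and its log2(fold-change) -0.76 (-0.85 to -0.67). The change of Nr1d1 was the larger, with a difference between their log2(fold-changes) of -1.10 (exact conditional interval -1.26 to -0.94), a value that does not depend on how the libraries are scaled. The summed reads of the pair were 4982 and 2049, with a log2(fold-change) of -1.18 (-1.26 to -1.11).

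Nr1d1 held 1 E-box at -367 and Nr1d2 held 3, at 449, 552 and 597, and these E-boxes and the D-box of Nr1d2 are shown because they are the known classes of element through which the clock drives REV-ERB genes.
Nr1d1 E-box, chr11:98637009-98637014: gttctccaatCACGTGaagctctcac
Nr1d2 E-box, chr14:19071187-19071192: ccgcactggcCACGTGcacggtgtgt
Nr1d2 E-box, chr14:19071084-19071089: cgggcggagaCACGTGaggccgcggg
Nr1d2 E-box, chr14:19071039-19071044: gccggaggaaCACGTGggggcggtgc
Nr1d2 D-box, chr14:19071117-19071124: tgacgcagcaTTACATAAtgcgagctgg

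Among the PAR bZIP genes, which share a proline- and acidic-rich region beside a basic leucine zipper, Dbp (ENSMUSG00000059824, chr7:52960458-52965525, plus strand) stood apart from Tef and Hlf. Dbp, an E-box output that activates D-box genes, had 1900 reads in 5 mM K+ and 828 in 60 mM K+, or 169 and 78.8 CPM. Its log2(fold-change) was -1.10 (-1.22 to -0.98), and 5 genes with at least 500 reads were lower. The 3′ end of Dbp overlaps Sphk2, a sphingosine kinase gene on the opposite strand, by 491 exon bases, 16.7% of the exon bases of Dbp. Sphk2 had 231 and 288 reads, with a log2(fold-change) of 0.42 (0.16 to 0.68). The nearest coding genes, Car11 with 320 and 357 reads and Rpl18 with 3269 and 4769, were not lower with TMM scaling, at 0.26 and 0.65.

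Tef (ENSMUSG00000022389, chr15:81632851-81657291, plus strand) had the most reads of the 7 genes, 5169 in 5 mM K+ and 3990 in 60 mM K+, or 459 and 379.9 CPM. Its log2(fold-change) was -0.27 (-0.33 to -0.21). Hlf (ENSMUSG00000003949, chr11:90197849-90252231, minus strand) had 369 and 310 reads, or 32.8 and 29.5 CPM. Its log2(fold-change) of -0.15 with TMM scaling had an interval of -0.37 to 0.07, which spanned 0. The value was -0.36 with total counts and -0.64 with Ppia and Hprt as reference, so the reading for Hlf depends on the scaling. The 5′ end of Tef overlaps the noncoding gene Gm17597 on the opposite strand by 193 exon bases, 2.45% of the exon bases of Tef, and Gm17597 was not analysed here. The log2(fold-change) of Dbp was below that of Tef by 0.82, with an interval of the difference of -0.96 to -0.69. It differed from that of Hlf by -0.95 (-1.20 to -0.69). Tef and Hlf differed by -0.12, with an interval of -0.35 to 0.11.

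For Dbp 2 RORE cores and a D-box are shown, at -189, 769 and -777, since RORE and D-box are the elements on which the other genes here act. Tef held 2 E-boxes and a D-box.
Dbp RORE, chr7:52960269-52960275: tggccaaataTAGGTCAgtgtcccgcc
Dbp RORE, chr7:52961227-52961233: tagtcttcatTAGGTCActtaggtctt
Dbp D-box, chr7:52959681-52959688: ccatgtacctTTATGCAAaccagcctat
Tef E-box, chr15:81632976-81632981: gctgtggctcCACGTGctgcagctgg
Tef E-box, chr15:81633521-81633526: gtgctgtgctCACGTGgggcaaggat
Tef D-box, chr15:81633714-81633721: tagaagctggTTATGTAAcaggaccaca

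Hlf held the only full CRE among the 7 genes, and its promoter window from RefSeq (a GRCm38 table, matched exactly to mm9), 250 bases before to 50 after the start (chr11:90252182-90252481 on mm9, minus strand), is shown with the CRE in capitals. Of 32851 RefSeq promoter windows of this length, 1.79% held a CRE. CREB, the factor that binds this element, is known as a calcium-responsive activator. The same search of the 8 RefSeq windows of the 7 genes found an E-box in both windows of Tef, against 7.15% of all windows, and no D-box, against 1.66%.
Hlf promoter: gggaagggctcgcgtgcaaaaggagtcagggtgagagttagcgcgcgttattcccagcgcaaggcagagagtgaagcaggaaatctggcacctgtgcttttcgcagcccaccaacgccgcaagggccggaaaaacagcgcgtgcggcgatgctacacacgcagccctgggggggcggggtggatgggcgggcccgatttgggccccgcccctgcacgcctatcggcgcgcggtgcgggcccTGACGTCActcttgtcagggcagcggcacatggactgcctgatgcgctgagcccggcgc

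Nfil3 (ENSMUSG00000056749, chr13:53062578-53076442, minus strand) encodes the D-box repressor that opposes the PAR bZIP factors, and is itself a RORE gene under REV-ERB. It had 632 reads in 5 mM K+ and 1673 in 60 mM K+, or 56.1 and 159 CPM. Its log2(fold-change) was 1.51 (1.37 to 1.64), a 2.84-fold higher level. Of genes with at least 500 reads, 3.24% were above 1 and 64 genes were higher than Nfil3. The log2(fold-change) of Nfil3 exceeded that of Dbp by 2.60 (2.42 to 2.78) and that of Nr1d1 by 3.37 (3.18 to 3.55).

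The Nfil3 promoter window (chr13:53076359-53076658 on mm9, minus strand), from RefSeq, is shown because it holds a RORE core, here written as its reverse complement, which 2.61% of all RefSeq windows held. The capitals mark the RORE core and, upstream of it, the CRE core as its reverse complement, which 20.8% of windows held. Further E-box and D-box matches lie outside this window.
Nfil3 promoter: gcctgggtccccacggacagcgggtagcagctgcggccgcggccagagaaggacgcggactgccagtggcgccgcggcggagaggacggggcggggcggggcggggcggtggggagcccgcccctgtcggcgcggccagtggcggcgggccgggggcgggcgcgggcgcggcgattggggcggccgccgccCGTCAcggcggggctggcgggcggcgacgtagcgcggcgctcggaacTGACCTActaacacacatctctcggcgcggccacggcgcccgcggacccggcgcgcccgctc
Nfil3 E-box, chr13:53077103-53077108: gccacctctcCACGTGgtcggggaca
Nfil3 D-box, chr13:53076074-53076081: ggggcatgcaTTACATAAacttttgctg
Nfil3 D-box, chr13:53075948-53075955: ctccccgctaTTGCATAAtgtctccgga
Nfil3 D-box, chr13:53075611-53075618: ctttcttacaTTGCATAAtgggccagcg

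Rora (ENSMUSG00000032238, chr9:68501593-69236053, plus strand) encodes the receptor that activates through RORE elements. It had 537 reads in 5 mM K+ and 609 in 60 mM K+, or 47.7 and 58.0 CPM. Its log2(fold-change) was 0.28 (0.11 to 0.45) with TMM scaling, 0.07 with total counts and -0.21 with Ppia and Hprt as reference, so its direction depends on the scaling. Gm15511, a noncoding gene on the opposite strand that shares 82 exon bases with Rora, had 0 reads in both libraries. Relative to Nr1d1, with no scaling involved, Rora was higher by 2.14 (1.93 to 2.36).

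**Figure D3:**
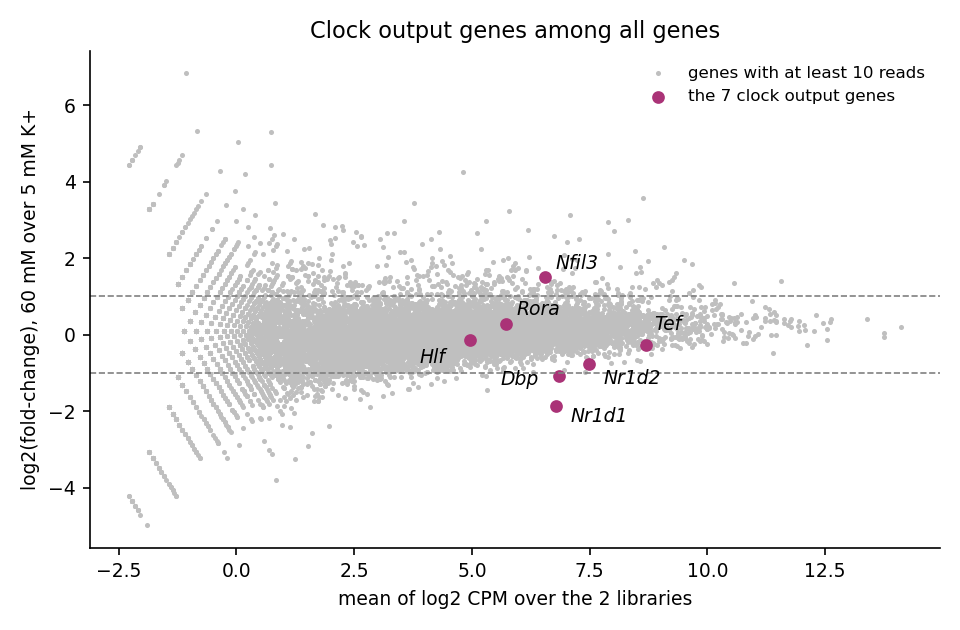
The log2(fold-change), 60 mM over 5 mM K+, against mean log2 CPM for genes with at least 10 reads, with the 7 genes in colour. Nr1d1 and Dbp lie below the line at -1 and Nfil3 above the line at 1, while Tef, Hlf and Rora lie near 0.

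The change of each gene was compared with that of each of the others, which gave 21 pairs. The interval of the difference in log2(fold-change) excluded 0 for 20 pairs, and 1 pair, Tef and Hlf, spanned it. These intervals cover counting error and not the spread between arteries or mice. The genes were chosen on this contrast and no share over all gene pairs was computed, so nothing is read from the count of pairs.

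Levels of different genes were compared per length, once with the deposited FPKM (fragments scaled by gene length and by total reads) and once with CPM per kilobase of annotated exon. The lengths behind the FPKM were shorter than the summed exons for 6 of the 7 genes, 1419 against 7865 bases for Tef, and equal for Nfil3, at 2026 bases. With FPKM, the 5 mM K+ order was Tef at 348, Dbp at 133, Nr1d2 at 129, Nr1d1 at 129, Nfil3 at 29.8, Rora at 18.4 and Hlf at 16.8. In 60 mM K+ it was Tef at 249, Nfil3 at 73.1, Nr1d2 at 65.8, Dbp at 54.0, Nr1d1 at 30.7, Rora at 19.4 and Hlf at 13.1. Of the 6 neighbouring pairs in FPKM order, 3 could not be told apart within counting error in 5 mM K+ and 0 in 60 mM K+. With exon length, Nr1d1 led in 5 mM K+ at 67.1 CPM per kilobase and Nfil3 in 60 mM K+ at 78.6. Nfil3 was the fifth in 5 mM K+ on both scales, and in 60 mM K+ the second with FPKM and the highest with exon length. With exon length, 1 neighbouring pair in 5 mM K+ (Tef and Dbp) and 2 in 60 mM K+ (Nr1d2 with Dbp, and Hlf with Rora) could not be told apart within counting error.

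**Figure D4:**
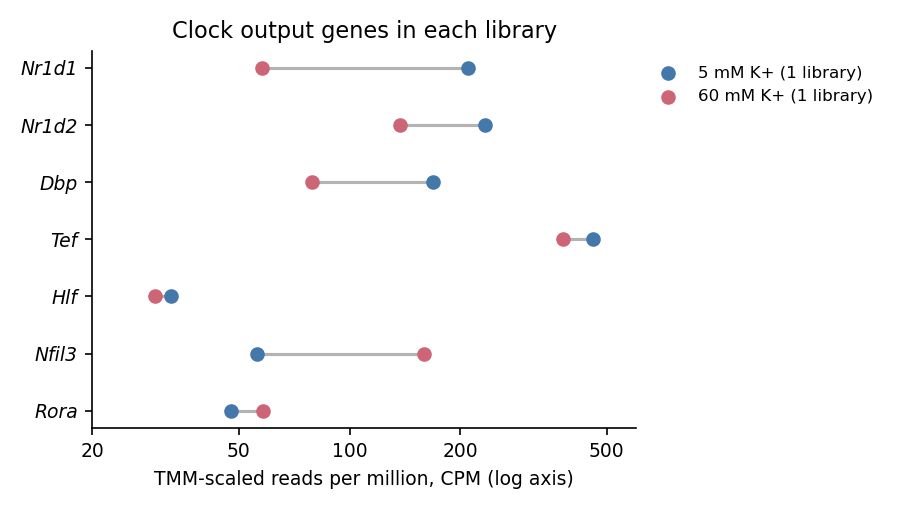
The level of each of the 7 genes in the 5 mM K+ and the 60 mM K+ library, in CPM on a log axis, with 1 point per library. Nr1d1 is at 209.6 in 5 mM K+ and 57.7 in 60 mM K+, Nfil3 at 56.1 and 159, and Tef at the top of the range at 459 and 379.9.

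The summed FPKM of the PAR bZIP genes was 16.7 times that of Nfil3 in 5 mM K+ and 4.32 times in 60 mM K+. With exon length the ratios were 4.36 and 1.01. Within the PAR bZIP sum, Dbp made up 26.8% in 5 mM K+ and 17.1% in 60 mM K+ with FPKM, and Tef 69.8% and 78.8%. With exon length, Dbp made up 47.5% and 33.6%, and Tef 48.4% and 60.7%. The summed FPKM of Nr1d1 and Nr1d2 was 14.0 times that of Rora in 5 mM K+ and 4.98 times in 60 mM K+, and with exon length 31.2 and 10.4 times. Nr1d1 made up 49.98% of the FPKM of the pair in 5 mM K+ and 31.8% in 60 mM K+, and with exon length 59.1% and 40.2%. In bulk tissue, fewer cells of a type and less RNA per cell cannot be told apart.

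Of the core clock genes outside these 7, 1 of 9 lay past 1. This was Arntl, the BMAL1 gene and 1 of 4 activators, at 1.44 (0.55 to 2.41) from 15 reads in 5 mM K+ and 38 in 60 mM K+. Clock, its partner, was at -0.37 (-0.56 to -0.17) from 528 and 382 reads. Npas2 was at -0.90 (-2.16 to 0.26) and Arntl2 at -0.23 (-0.85 to 0.38), with both intervals spanning 0. None of the 5 Period and cryptochrome genes lay past 1 in either direction. Per1 was at -0.12, Per2 at -0.27 and Per3 at -0.60, while Cry1 was at 0.62 and Cry2 at 0.58. None of 8 further clock repressors and E-box outputs lay past 1, with Bhlhe40, an E-box repressor, the highest at 0.97 (0.92 to 1.02) and 5274 and 9612 reads.

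Of the genes known to be under RORE control, Nfil3, Arntl and Cry1 were higher in 60 mM K+ with TMM scaling, at 1.51, 1.44 and 0.62, and Clock was lower at -0.37. The D-box genes measured (Per1, Per2, Per3, Nr1d1, Nr1d2 and Rora; Rorb had 0 reads) had a median of -0.44, with 1 of 6 below -1 and none above 1, and 3 of the 6, Nr1d1, Nr1d2 and Rora, belong to the 7 genes. The lists were written with earlier results of these data known.

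**Figure D5:**
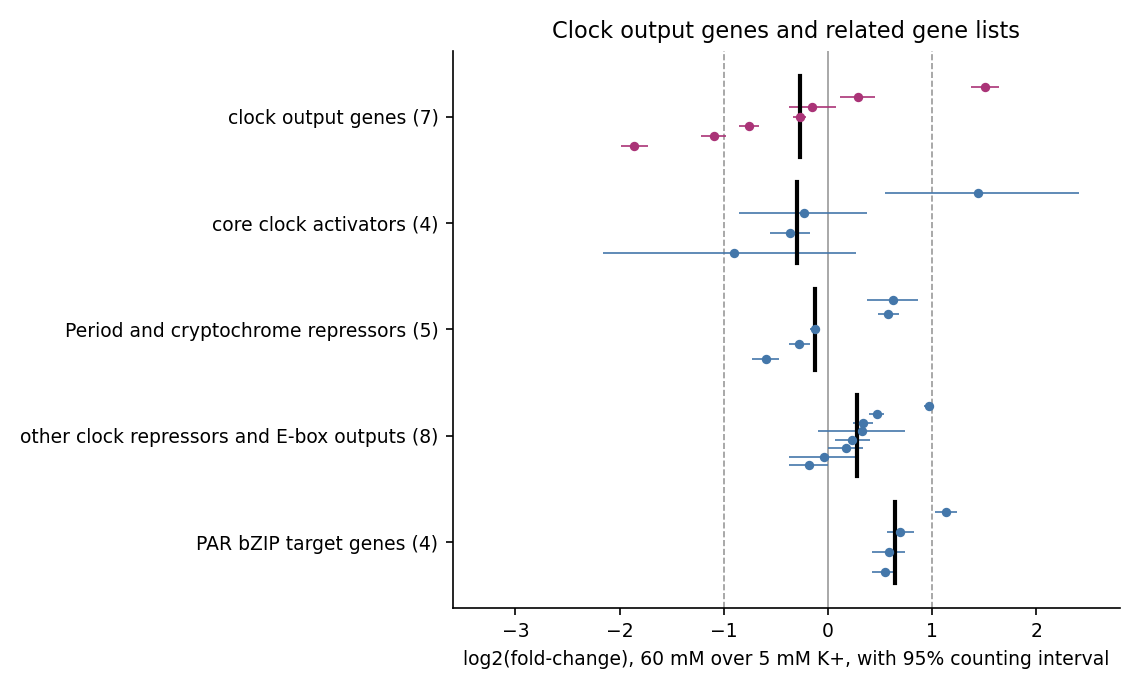
The log2(fold-change) of the 7 clock output genes and of 4 related gene lists, 1 point per gene with bars for the 95% counting interval and the number of genes with at least 10 reads in parentheses. The thick vertical bars mark the medians, which are -0.27 for the 7 genes, -0.12 for the Period and cryptochrome genes and 0.64 for the PAR bZIP target genes.

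Genes that act with or under REV-ERB were mixed. The corepressor complex genes Ncor1, Hdac3, Tbl1x, Tbl1xr1 and Gps2 lay between -0.25 and 0.08. Of the 10 heme genes, which make or break down the ligand of REV-ERB, 1 lay above 1: Hmox1, heme oxygenase, at 1.88 (1.56 to 2.21) from 104 and 357 reads. Alas1, the rate-limiting enzyme of heme synthesis, was at 0.70 (0.57 to 0.82). None of the 11 genes of REV-ERB and clock protein turnover lay past 1, and their median was 0.19. In the NR1 nuclear receptor family, to which the REV-ERBs and RORs belong, Rara and Ppard lay above 1, both at 1.01, and Rarb lay below -1 with 10 and 4 reads and an interval spanning 0 (-3.35 to 0.57).

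Of 6 measured inflammatory genes that REV-ERB is known to repress, 4 lay above 1 and 1 below -1, with a median of 1.99. Il6, a cytokine gene, had 631 and 3152 reads (2.42, 2.30 to 2.55), Ccl2 had 47 and 346 reads (2.98, 2.54 to 3.45), and Cxcl5 had 0 and 53. Il1b had 4 and 11 reads with an interval that spanned 0, and Mmp9 had 16 and 3 reads (-2.31, -4.73 to -0.51). Of the 4 measured PAR bZIP targets, Por, the cytochrome P450 reductase gene, was at 1.13 (1.02 to 1.24), Alas1 at 0.70, Abcb1a at 0.58 and Sult1a1 at 0.54. All 4 intervals lay above 0 with TMM scaling. With total counts the 4 values were 0.21 lower.

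Heat shock genes, which mark protein stress, were higher in 60 mM K+ with TMM and total-count scaling. All 8 had a TMM interval above 0, although Hspd1, at 0.41, turned negative with Ppia and Hprt as reference. Of the 8, 6 lay above 1, with Hspa1b at 3.57 (3.49 to 3.66), from 1303 to 14454 reads, and Hspa1a at 2.98. Hspa1a and Hspa1b are near-identical copies, so the split of reads between them is uncertain. Of 12 other bZIP genes, Atf4 at 1.24 and Ddit3 at 1.31 lay above 1, and the median of the 12 was 0.82. None of 8 glucocorticoid-responsive genes lay past 1, and their median was 0.04. The part of the heat shock difference in the values of the 7 genes was not tested.

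Markers of other cell types differed between the libraries too. The 5 smooth muscle markers had a median of 0.20 and a summed level of 31791 and 34985 CPM. With TMM scaling 4 of their intervals lay above 0 and 1 below. The marker below was Myocd, with 1089 and 704 reads (-0.53, -0.67 to -0.39). The 5 endothelial markers had a median of 0.49, and the 5 fibroblast markers a median of -0.29 with all 5 intervals below 0. Of the 5 adipocyte markers 2 lay below -1, Plin1 with 101 and 18 reads and Adipoq with 97 and 44, and Lep lay above 1 with 1 and 9 reads. Cidec was at -0.90 (-1.32 to -0.48). Fabp4, the adipocyte marker with the most reads at 1060 and 951, was at -0.06 with an interval spanning 0 (-0.18 to 0.07). The summed level of the adipocyte markers was 125 and 104 CPM. The pancreas markers summed to 11.4 and 39.5 CPM, with Pnlip at 2 and 61 reads. The macrophage markers had a median of -0.09, the Schwann cell and nerve markers -0.27 and the red blood cell markers -0.56. Of the 5 intestinal epithelial markers, Lgals4 had 204 and 118 reads (-0.69, -1.03 to -0.35), Vil1 had 7 and 10, and Fabp2, Cdh1 and Epcam were at 0 in both libraries, so that the list summed to 211 and 128 reads. The T and B cell markers had 7 and 8 reads in all. The part of these cells in the values of the 7 genes was not tested.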

How the data were processed

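RNA from mesenteric arteries was sequenced from poly-A selected libraries, 1 per K+ concentration. According to the study's methods and processing notes, the authors aligned reads with TopHat2 2.0.12 to mm9 and counted them with HTSeq 0.6.1; the notes also name mm8 and edgeR 3.0.8, and the annotation is not given in the sources used here. The authors deposited read counts per gene, without normalization, and FPKM, which divide the same counts by length and total reads (the ratio of count to FPKM between libraries was 1.08 for all 17356 genes with reads in both). From the counts, edgeR 4.0.16 (R 4.3.3) gave TMM factors of 1.07 and 0.930, and log2(fold-change) was computed with 0 set to 0.5. Intervals are 95% Clopper-Pearson or, for pairs of genes, exact conditional intervals from scipy 1.17.1, and cover counting error only. PCR duplicates were not identified by molecular tags.

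No test of the conditions was possible with 1 library each. The methods' threshold of an absolute log2(fold-change) of 1 was used for counts. The genes and lists were chosen with earlier results of these data known. The text names all 7 genes; in each list, genes past 1 and otherwise up to 4 with the most reads, or every measured core clock, D-box or RORE gene; and genes that overlap or neighbour Nr1d1 and Dbp. Some genes that this rule would name, and the summaries of the RORE, corepressor and NR1 receptor lists, are not reported here. Ensembl identifiers were matched to symbols in GENCODE vM1 (32601 of 55573). RefSeq promoter windows were matched exactly to mm9. The motif search and the levels by exon length were chosen after seeing the data. Alternatives were total-count, upper-quartile, median-of-ratios (DESeq2 1.42.0) and Ppia with Hprt scaling, FPKM, and other read minimums. The intervals were tried on simulated counts that varied by counting error only, with library totals taken as known. That simulation therefore does not address duplicates, scaling or the spread between mice.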

Additional observations from a re-analysis of the deposited data

How the results depend on the processing

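No paired analysis was possible because only 1 library was made per K+ concentration, and no replicate could be left out. Upper-quartile and median-of-ratios scaling left the values of all 7 genes within their counting intervals, and the differences between pairs of genes do not depend on scaling. With total counts the log2(fold-change) was -2.07 for Nr1d1, -0.97 for Nr1d2, -1.31 for Dbp, -0.48 for Tef, 1.30 for Nfil3 and 0.074 for Rora. FPKM with a pseudocount of 0.1 gave -2.07, -0.97, -1.30, -0.48, 1.29 and 0.074 in the same order, and FPKM with a pseudocount of 1 gave -2.03, -0.96, -1.29, -0.48, 1.27 and 0.071. Scaling to Ppia and Hprt gave -2.35, -1.25, -1.59, -0.76, 1.02 and -0.21 in that order, and -0.64 for Hlf, so that Rora changed direction. For Hlf the value was -0.36 with total counts, -0.36 with a pseudocount of 0.1 on FPKM and -0.34 with a pseudocount of 1. Total counts shift every value by -0.21 from TMM, and Ppia with Hprt by -0.49.

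Of all genes, 869 lay below -1 and 822 above 1 with TMM. With total counts they were 1285 and 601. With Ppia and Hprt they were 2313 and 385. With a pseudocount of 1 on FPKM they were 193 and 240, and with 0.1 they were 1037 and 497. With no minimum count they were 2491 and 3081, with at least 50 reads 211 and 412, and with at least 500 reads 8 and 212. Taking the nearest end of the counting interval gave 73 and 263, and left 1 of the 7 genes below -1, Nr1d1. The ratios of PAR bZIP to Nfil3 and of REV-ERB to Rora levels depend on the gene length used, as given in the report. Depth limits the genes with few reads, such as Arntl and Npas2, and the spread between mice is not measured.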
